A study of Mus musculus with 4 samples.

Results

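Weak Prep-only sites are the low end of the list of places where the Prep proteins were found on the genome of the mouse embryo, where no Meis site was listed at the same place. They were chosen as the peaks of the Prep list with a score below 6.6 that overlapped no Meis peak by 1 bp or more. The rule gave 845 sites, which are 25.4% of the 3331 Prep peaks and 28.9% of the 2923 Prep peaks without a Meis overlap. The sites were thus selected on their score and on the absence of Meis overlap, and both are given below as a description.

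The study applied chromatin immunoprecipitation and sequencing (ChIP-seq), which maps the places on DNA where a protein is bound or held. All libraries came from trunks of C57BL/6 mice, wild type, that were dissected at embryonic day 11.5 and made into single cells, with no statement on how many embryos were pooled. There was 1 library with Prep1/2 antibody (3331 peaks), 1 with Meis1/2 antibodies (5686 peaks), and 1 input library without antibody for each, which was not analysed here. Each group has 1 library and no treatment was given. No test between groups, and no replicate check of a peak, can therefore be made. The intervals below are 95% Wilson intervals for shares and 95% order-statistic intervals for medians. They cover the number of peaks only, and peaks are not replicates. Read depth is unknown.

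Prep and Meis proteins belong to the TALE group of transcription factors, in which the DNA-binding homeodomain carries a few extra residues. Both bind DNA together with Pbx proteins, which are TALE factors too, and Pbx proteins in turn pair with Hox proteins. In the embryonic trunk this family is known for its part in patterning along the body axis. A trunk is a mixture of tissues. A weak peak from a site bound in few cells and one from a site bound weakly in many cells cannot be told apart.

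The sites sat on a small number of score values. The score is the authors' value for each peak, on a scale that is not stated, and the most frequent Prep scores were spaced by 0.657, called a step here. In this unit 409 sites stood at 8 steps (score 5.25), 222 at 9 steps (5.91) and 176 at 10 steps (6.57). These 3 values held 807 sites, or 95.5%, counting a score as a whole step when within 0.01 steps of one. The other 38 sites, or 4.50% (3.29 to 6.11%), lay between steps. Among all Prep-only peaks 6.43% lay between steps. The share was 5.35% (69 of 1290) for those scoring from 6.6 to below 43.3. For those scoring at least 43.3 it was 10.3% (81 of 788, 8.35 to 12.6%), so such scores are not particular to the weak sites.

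The score limit fell into a gap between values. Just inside it were the 176 sites at 6.57, with a median width of 282.5 bp. Just outside it came 1 Prep-only peak at 6.76, then 4 at 6.78 and 1 at 6.92, and the next whole step, 7.22, held 131 with a median width of 278 bp. The list ends at the bottom with a score of 5.03, and 8 steps held the most peaks of any score.

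A similar share of Prep peaks was left aside at each of these steps for overlapping a Meis peak. At 8 steps 81 of 490 Prep peaks overlapped a Meis peak (16.5%, 13.5 to 20.1%). At 9 steps it was 41 of 263 (15.6%, 11.7 to 20.5%), and at 10 steps 42 of 218 (19.3%, 14.6 to 25.02%). Over all Prep peaks below the limit it was 166 of 1011 (16.4%, 14.3 to 18.8%), against 12.2% of the whole Prep list, which includes them. From the limit to below 43.3, 191 Prep peaks overlapped a Meis peak and 1290 did not. Of the 839 Prep peaks scoring at least 43.3, 51 did, so the share was lowest at the highest scores. A wide peak meets the overlap rule of 1 bp more easily, and the part of width in these shares was not tested. Meis signal below the lowest listed Meis score of 8.51 was not measured at the weak sites. Prep-only therefore means only that no Meis peak was listed there.

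**Figure D1:**
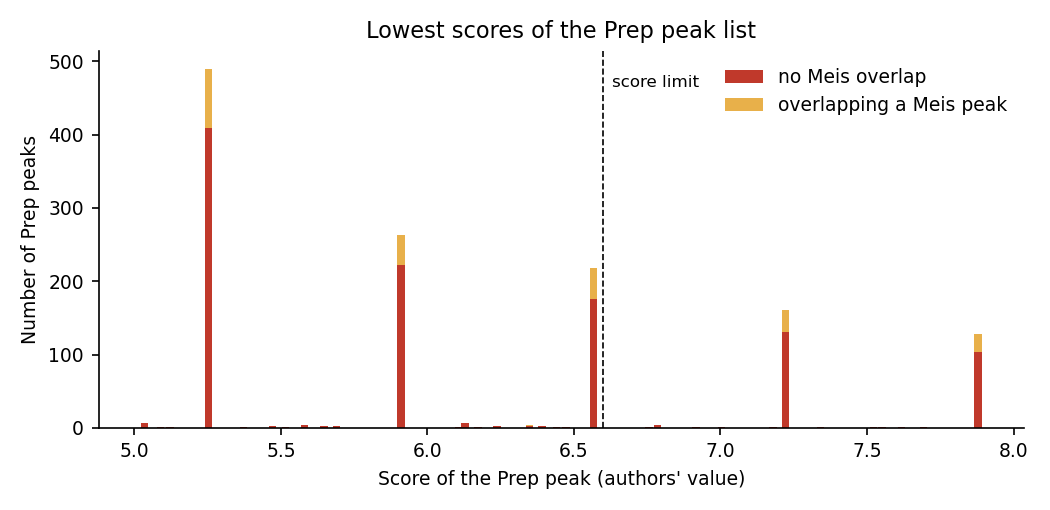
Number of Prep peaks at each score (authors' value) up to 8, split by overlap with a Meis peak; the dashed line is the score limit of 6.6. Peaks stand at 5.25, 5.91 and 6.57 below the limit, with few in between.

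The weak sites were wide peaks. Their median width was 296 bp (interval 293 to 299; quartiles 276 and 323 bp), and together they covered 262 kb. Middle Prep-only peaks, with scores from the weak limit to below 43.3, had a median of 239 bp (236 to 242; n = 1290). Strong Prep-only peaks, scoring at least 43.3, had a median of 172 bp (171 to 173; n = 788). Only 4 weak sites (0.473%) were under 200 bp, against 197 middle (15.3%) and 737 strong peaks (93.5%). Quartile ranges of weak and strong peaks did not overlap, since the upper quartile of the strong ones was 182 bp.

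Width moved with score over the whole of the Prep-only list, so that the weak sites were the end of a slope. Peaks scoring from 6.6 to below 8 had a median width of 278 bp, those from 8 to 10 had 259.5 bp and those from 10 to 15 had 241.5 bp. It was 218 bp from 15 to 25, 194.5 bp from 25 to 43.3, 179 bp from 43.3 to 100 and 166 bp above. Within the weak sites the slope went on. The median was 304 bp (300 to 309) at 8 steps, 295.5 bp (291 to 300) at 9 and 282.5 bp (277 to 288) at 10. Spearman's rho of width with score over the 845 sites was -0.23, given as a description, since all come from 1 library. The 166 weak Prep peaks that did overlap a Meis peak had a median of 291.5 bp (286 to 299) in the same range of scores, an interval that overlaps that of the weak Prep-only sites.

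Very wide calls were few. A width over 400 bp was seen in 21 weak sites (2.49%), in 12 middle peaks (0.9302%) and in 0 of 788 strong peaks, for which 3 counts set an upper limit of 0.381%. It was also seen in 0 of the 166 weak peaks overlapping Meis, for which the Wilson interval reaches 2.26%, near the 2.49% of the weak sites. The widest site lay on chromosome X at 36308740 to 36314072 and measured 5333 bp, with a score of 5.25 and no other peak of either list within 382 kb. It was followed by a site of 1554 bp on chromosome 3 at 51363835 to 51365388 and one of 900 bp on chromosome 5 at 129325231 to 129326130, both at 8 steps. All 3 had the most frequent score of the list. The narrowest sites measured 137 bp (chromosome 12, 70755074 to 70755210), 163 bp (chromosome 5, 33067305 to 33067467) and 189 bp (chromosome 3, 8245254 to 8245442). The last 2 of these had scores between steps.

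**Figure D2:**
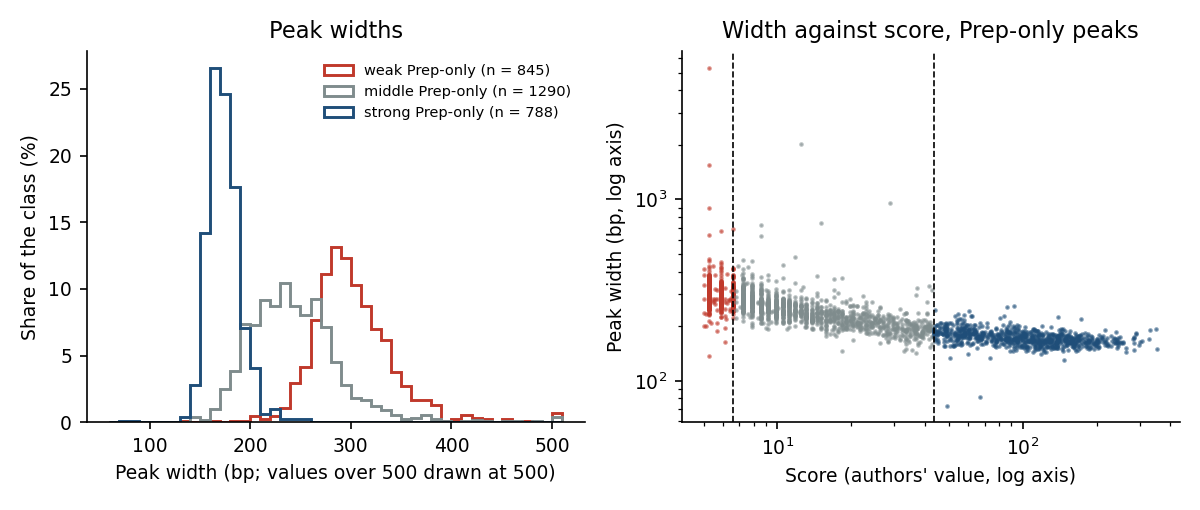
Left, share of peaks by width (10 bp bins) for weak, middle and strong Prep-only peaks. Right, width against score on log axes, 1 point per Prep-only peak, with dashed lines at scores 6.6 and 43.3; medians run from 296 bp for weak to 172 bp for strong peaks.

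The weak sites were spread over every autosome. Of the 845, 816 lay on autosomes (96.6%), against 97.3% of middle, 98.2% of strong Prep-only peaks and 99.3% of Meis peaks. Density was taken over the part of each chromosome spanned by the peaks of the series. Per 10 Mb there were from 1.83 sites on chromosome 14 to 4.99 on chromosome 17, with a median of 2.81 over 19 autosomes. The highest density was 2.72 times the lowest. For strong Prep-only peaks this ratio was 4.15, for middle ones 3.37 and for Meis peaks 1.58. Weak sites were thus less even over the autosomes than Meis peaks by this ratio, and more even than strong Prep-only peaks. The ratio was not adjusted for the number of peaks, and small counts alone widen it. The autosomes held 816 weak, 1255 middle and 774 strong Prep-only peaks, against 5646 Meis peaks.

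Chromosomes dense in weak sites tended to be those dense in other Prep-only peaks. Over the 19 autosomes Spearman's rho of weak with middle density was 0.60 and of weak with strong density 0.56, while that of weak with Meis density was -0.07. These coefficients describe 19 chromosomes of the same 2 libraries, and base composition and gene content, which vary between chromosomes, were not analysed here. Chromosome 17 had the highest density of weak sites (4.99 per 10 Mb) and a high density of strong ones (6.29), but 20.7 Meis peaks per 10 Mb, below the Meis median of 24.1. Chromosome 18 had few weak sites (2.05) and few strong ones (1.94), but 27.5 Meis peaks per 10 Mb. Chromosome 11 went the other way, with the highest density of both strong Prep-only (6.40) and Meis peaks (28.4), and 4.12 weak sites per 10 Mb.

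The weak share of the Prep-only peaks ranged from 17.1% to 36.1% over the autosomes. Its Wilson interval held the overall share of 28.9% on 17 of the 19 autosomes. The exceptions were chromosome 11, with 49 weak sites among 238 Prep-only peaks (20.6%, 15.9 to 26.2%), and chromosome 19, with 14 among 82 (17.1%, 10.5 to 26.6%). The highest share was on chromosome 1 (36.1%, 28.7 to 44.1%). These intervals are wide, so holding 28.9% does not show that a share is close to it. They are not adjusted for the number of chromosomes. The median width of weak sites lay between 287 and 313 bp on each autosome.

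**Figure D3:**
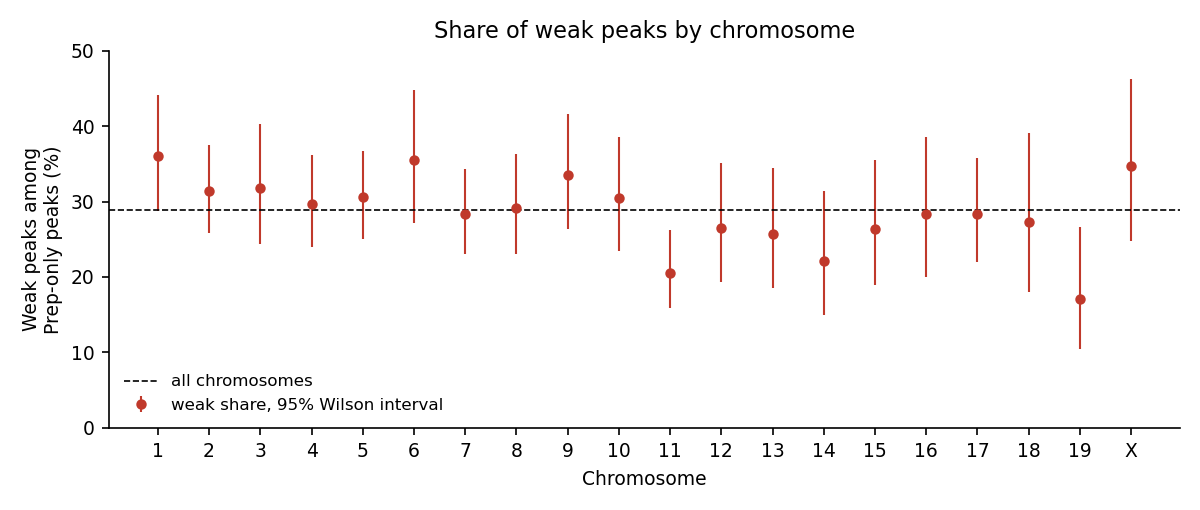
Weak peaks as a share of all Prep-only peaks by chromosome (percent, points) with 95% Wilson intervals; the dashed line is the 28.9% of all chromosomes, and the Y chromosome is not drawn. Only the intervals of chromosomes 11 and 19 miss the line.

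On the sex chromosomes there were 29 weak sites. The X chromosome carried 25 (2.96%, 2.01 to 4.33%), against 2.46% of all Prep-only peaks. Among middle Prep-only peaks the X share was 2.56%, among strong ones 1.78% and among Meis peaks 0.703%. The X sites were not spread evenly. A stretch of 1.19 Mb, from 120129005 to 121314136, held 6 of the 25, the nearest 9.71 Mb from any Meis peak, and 6 others lay between 4247061 and 5135423. Both stretches were picked out after their values were seen. The Y chromosome carried 4 weak sites of 845 (0.473%), against 0.205% of all Prep-only peaks, or 6 peaks. Scores of the 4 were 5.58, 5.91, 5.65 and 6.39, and the remaining Y peaks, 2 middle ones, scored 7.88 and 7.34. No Meis peak lay on the Y chromosome.

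Along the autosomes, the weak sites followed the other classes. Their median position was 56.8% of the way from the first to the last peak of the chromosome, against 58.7% for middle and 57.6% for strong Prep-only peaks and 56.0% for Meis peaks. The last 20% of the stretch held 28.6% of the weak sites, 28.8% of the middle and 26.9% of the strong ones.

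Most weak sites stood alone. The median distance between centres of a weak site and the nearest other weak site was 516 kb (421 to 568 kb), and 48 sites (5.68%, 4.31 to 7.45%) had another within 10 kb. Strong Prep-only peaks, with a similar number on the genome, had a median of 330.2 kb (273 to 393 kb) to the nearest of their own kind, and 97 (12.3%, 10.2 to 14.8%) had one within 10 kb. At 0.5 kb the counts were 14 weak sites (1.66%, 0.989 to 2.76%) and 83 strong peaks (10.5%, 8.58 to 12.9%). Middle Prep-only peaks are more numerous, so that a close neighbour of the same kind is easier to find, and 86 of 1290 (6.67%) had one within 0.5 kb.

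The close neighbours of weak sites were mostly low-scoring Prep peaks. Another Prep peak of any score lay within 1 kb of 48 weak sites (5.68%, 4.31 to 7.45%), against 9.99% of all Prep-only peaks. Within 10 kb there was one for 119 sites (14.1%, 11.9 to 16.6%), against 17.2% of all Prep-only peaks. For strong Prep-only peaks the share within 10 kb was 19.04% (16.4 to 21.9%). Of the 48 nearest Prep peaks within 1 kb, 20 were weak Prep-only sites (41.7%) and 22 middle Prep-only (45.8%), whereas 2 were strong Prep-only (4.17%). Strong Prep-only peaks make up 23.7% of the Prep list. The median score of these 48 neighbours was 7.22, below the 10.5 of the list. At 100 kb the makeup was closer to that of the list, with 76 strong Prep-only peaks among 428 nearest neighbours (17.8%).

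Some of these neighbours touched. In 28 weak sites (3.31%, 2.30 to 4.75%) the called interval overlapped that of another Prep peak, and these had a median width of 334.5 bp, against 295 bp for the other weak sites. The same was seen in 86 of 1290 middle (6.67%) and 18 of 788 strong Prep-only peaks (2.28%). Overlapping peaks were wider in these classes too, with medians of 288 against 237 bp for middle and 193.5 against 172 bp for strong ones. Sites with a Prep peak centre within 0.5 kb had a median distance of 260 bp, with quartiles of 206 and 295 bp over 37 sites. The closest pair of weak sites lay on chromosome 1, at 136217444 to 136217808 (score 5.25) and 136217637 to 136217962 (score 5.91), with centres 173.5 bp apart. The second lay on chromosome 17, at 56071217 to 56071634 and 56071451 to 56071800, both with a score of 5.91 and 200 bp apart. The third lay on chromosome 3, at 123210746 to 123211120 (score 6.57) and 123210984 to 123211368 (score 5.25), 243 bp apart. In all 3 pairs the called intervals overlapped, and 7 such overlapping pairs were found among the 845 sites.

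Weak sites formed no large groups, and neither did the other Prep-only classes. With gaps of up to 10 kb between edges there were 23 groups, 21 of 2 sites and 2 of 3, which took in 48 sites (5.68%). Middle Prep-only peaks formed 70 groups with 144 peaks (11.2%) and strong ones 48 groups with 97 peaks (12.3%). The largest group had 3 peaks in each class. The group of 3 weak sites on chromosome 7 at 38976496 to 38986239 had scores of 5.25 to 6.57 and held 1 Meis peak and no other Prep peak. The group of 3 on chromosome 5 at 33066553 to 33076862 had scores of 5.25 to 6.13, held 1 other Prep peak and lay 904 kb from the nearest Meis peak. The next group by the rule, a pair on chromosome 1 at 36364769 to 36372142, scored 6.57 at both sites. None of the 23 groups of weak sites held a strong Prep peak within its bounds. The longest group spanned 10.3 kb, and only 17 of all 845 weak sites (2.01%) had a strong Prep peak within 10 kb. A count of 0 in 23 groups therefore sets the groups apart from the class in no way. The same count was not made for groups of middle or strong peaks.

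Weak, middle and strong Prep-only peaks lay at similar median distances from Meis peaks. The median distance from a weak site to the nearest Meis peak was 149.5 kb (134 to 167 kb). It was 140.3 kb (129 to 153 kb) for middle and 146 kb (130 to 165 kb) for strong Prep-only peaks, so that the 3 intervals overlapped. Within 10 kb of a Meis peak centre lay 53 weak sites (6.27%, 4.83 to 8.11%), against 6.29% of all Prep-only peaks. Within 100 kb there were 332 (39.3%, 36.1 to 42.6%), against 38.7%. Within 1 kb there were 15 (1.78%, 1.08 to 2.91%), against 1.74%. At 0.5 kb the classes were less alike, on small counts. There were 7 weak sites (0.828%, 0.402 to 1.70%), 3 middle peaks (0.233%, 0.0791 to 0.682%) and 13 strong ones (1.65%, 0.967 to 2.80%). The rule removed peaks that overlap a Meis peak, so the shortest distances are limited by it, and more so for wide peaks. The 4 sites on chromosome Y had no Meis peak on their chromosome and count as not near.

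The close Meis neighbours of the weak sites had a median score below that of the Meis list. The Meis peaks nearest to the 53 sites within 10 kb had a median score of 10.2, and those within 1 kb 9.61, against 10.7 for all Meis peaks. A score of 9.61 has place 4020 of 5686 in the Meis list. For Meis neighbours within 100 kb the median was 10.7, that of the list. The nearest of all lay on chromosome 8, where the weak site at 28072043 to 28072368 (score 5.25) was 261 bp from the centre of the Meis peak at 28071867 to 28072022. That Meis peak had a score of 35.1 and place 54 of 5686 in its list, and it overlapped another Prep peak. The next was the site on chromosome 7 at 38984933 to 38985245 (score 5.25), 310 bp from a Meis peak with a score of 8.62, near the bottom of the Meis list. The following one was the site on chromosome 14 at 62455169 to 62455461 (score 5.25), 310.5 bp from a Meis peak with a score of 8.96. Of the 15 Meis peaks within 1 kb, 4 overlapped some other Prep peak, as did 14 of the 51 distinct ones within 10 kb. In the whole Meis list, 5279 of 5686 peaks overlapped no Prep peak. Around a weak site there were a median of 5 Meis peaks within 1 Mb on either side, the same median as for middle and strong Prep-only peaks.

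Strong Prep peaks were farther from weak sites than from other Prep-only peaks. The median distance from a weak site to the nearest of the 839 strong Prep peaks was 707 kb (611 to 844 kb). From a middle Prep-only peak it was 529 kb (469 to 583 kb), and from a strong one to the nearest other strong peak 295 kb (248 to 364 kb). Within 100 kb of a strong Prep peak lay 127 weak sites (15.03%, 12.8 to 17.6%), against 21.2% of all Prep-only peaks. For middle peaks the share was 19.1% (17.1 to 21.4%) and for strong ones 31.1% (28.0 to 34.4%). Within 10 kb there were 17 weak sites (2.01%, 1.26 to 3.20%), against 5.68% of all Prep-only peaks. Middle peaks gave 3.80% (2.89 to 4.99%) and strong ones 12.7% (10.5 to 15.2%). Strong peaks were among the target peaks of this distance, so the strong class is both measured and measured against. Of the weak peaks that overlapped a Meis peak, 17 of 166 had a strong Prep peak within 100 kb (10.2%, 6.49 to 15.8%), and their median distance to one was 815 kb (513 to 1061 kb). Both intervals overlap those of the weak Prep-only sites.

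A strong Prep peak lay within 1 kb of 3 weak sites (0.355%, 0.121 to 1.04%), against 3.87% of all Prep-only peaks and 1.55% of middle ones. The nearest of these 3 weak sites was on chromosome 5 at 115634544 to 115634854 (score 6.57), 247.5 bp from a strong peak with a score of 49.2. Another on chromosome 12 at 101963231 to 101963521 (score 6.57) was 337.5 bp from a strong peak with a score of 63.0. The third, on chromosome 16 at 96348444 to 96348756 (score 5.25), was 888 bp from a strong peak with a score of 65.0 and also overlapped another weak site.

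**Figure D4:**
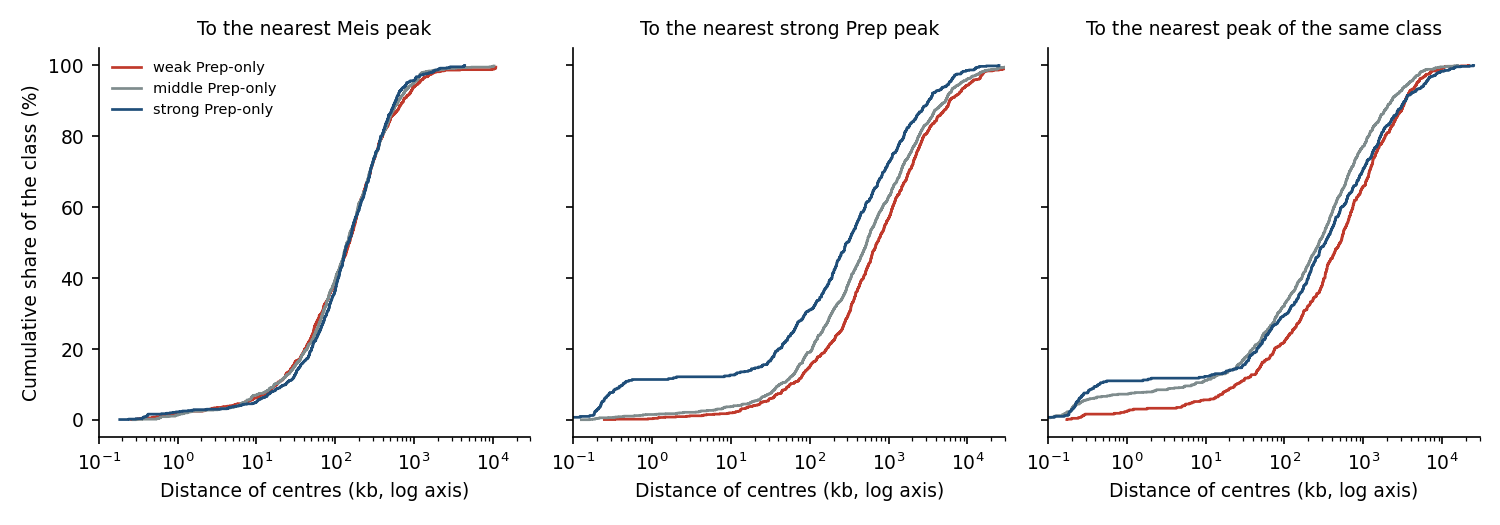
Cumulative share of weak, middle and strong Prep-only peaks by distance of centres (kb, log axis) to the nearest Meis peak, strong Prep peak and peak of the same class. The 3 curves to Meis peaks lie together around their medians (149.5, 140.3 and 146 kb), whereas those to strong Prep peaks are apart (707, 529 and 295 kb).

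Most weak sites were isolated from both lists at short range, and few at long range. No other peak of either list lay within 10 kb of 692 sites (81.9%, 79.2 to 84.3%). The same held for 77.1% of middle (74.8 to 79.3%) and 77.4% of strong Prep-only peaks (74.4 to 80.2%). No peak lay within 100 kb of 283 weak sites (33.5%, 30.4 to 36.7%), against 28.8% of middle and 30.3% of strong ones, and within 1 Mb of 9 (1.07%). The site farthest from any peak was on chromosome 1 at 113806034 to 113806324, 1663 kb from the next peak. It was followed by sites on chromosome X at 160514350 to 160514597 (1340 kb) and on chromosome 6 at 58781388 to 58781678 (1296 kb). Widths of isolated sites were those of the class, with a median of 297 bp for the 283. A Meis and another Prep peak both lay within 10 kb of 19 sites, a Meis peak alone for 34 and another Prep peak alone for 100.

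The 38 sites with scores between steps are set beside the 807 on whole steps here. This split was made after the values were seen. Their scores were simple fractions of the step: 19 of them were a whole number of steps over 3, 6 over 2 and 6 over 5, within 0.0001 steps. Another weak site lay within 10 kb of 12 of the 38 (31.6%, 19.1 to 47.5%), against 36 of 807 (4.46%, 3.24 to 6.11%) on whole steps. On the X or Y chromosome lay 8 of 38 (21.1%, 11.1 to 36.3%), against 21 of 807 (2.60%, 1.71 to 3.95%). A strong Prep peak lay within 100 kb of 1 of 38 (2.63%, 0.466 to 13.5%), against 126 of 807 (15.6%, 13.3 to 18.3%). Neighbouring sites are not independent, so that the intervals for the 38 are too narrow.

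Several of these sites lay together. On chromosome 1, 5 weak sites lay between 173448100 and 173489427, and 3 of these had scores between steps. A further 3 lay on chromosome 8 between 19925699 and 19984821, the nearest 1132 kb from any Meis peak. Both sites of a pair on chromosome 3, at 8245254 to 8245442 and 8246319 to 8246518, were of this kind, with widths of 189 and 200 bp. So were 3 of the 4 weak sites on chromosome Y. A middle Prep-only peak there, with a score of 7.34, also lay between steps. Neighbours and sex-chromosome shares were not counted for the middle and strong peaks between steps. The median width of the 38 was 274.5 bp (246 to 284), below the 297 bp (294 to 300) of the others, and 2 of 40 weak Prep peaks between steps overlapped a Meis peak (5%, 1.38 to 16.5%), against 164 of 971 on whole steps (16.9%, 14.7 to 19.4%). Repeat content, mappability and input reads at these places were not analysed here, and their part in the scores was not tested.

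**Figure D5:**
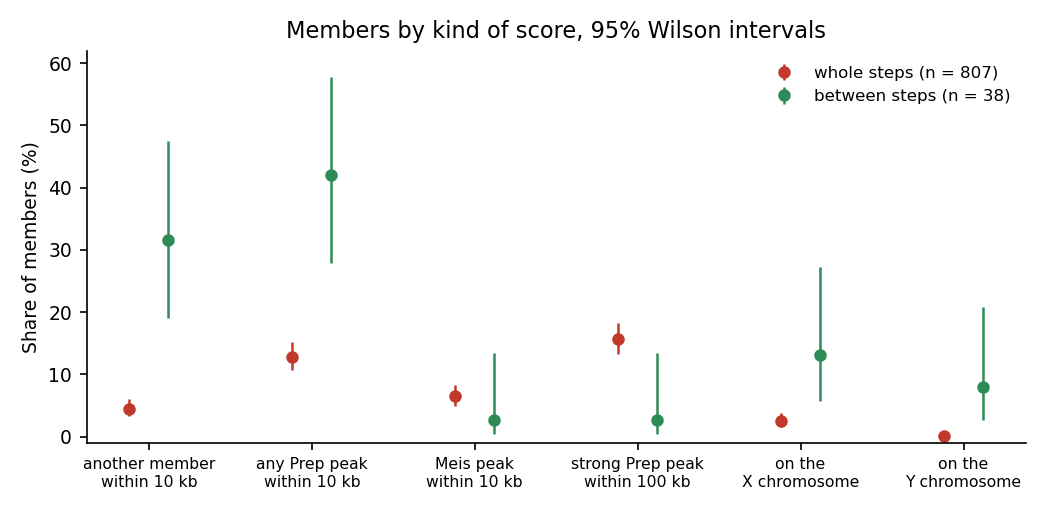
Share of weak Prep-only sites (percent, with 95% Wilson intervals) with a neighbour at the given distance or on a sex chromosome, for the 807 sites on whole score steps and the 38 between steps. Another weak site within 10 kb was found for 31.6% of the latter and 4.46% of the former.

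Without the 38 sites, the median width of the remaining 807 was 297 bp, and 2.48% lay on the X chromosome. Within 10 kb, 6.44% had a Meis peak and 12.8% another Prep peak. These values lay within the intervals of the whole class, but the 807 are 95.5% of it, so they could hardly move. The Y chromosome then held 1 site of 807 (0.124%), below the interval of the whole class (0.184 to 1.21%). The 3 score steps gave overlapping intervals for position. A Meis peak lay within 10 kb of 26 of 409 sites at 8 steps (6.36%, 4.38 to 9.15%), 19 of 222 at 9 steps (8.56%, 5.55 to 13.0%) and 7 of 176 at 10 steps (3.98%, 1.94 to 7.98%). A strong Prep peak within 100 kb was found for 14.7% at 8 steps, 15.3% at 9 and 18.2% at 10, with intervals that overlap. Spearman's rho of the score with the distance to the nearest Meis peak was 0.01 over 841 sites, and with the distance to the nearest strong Prep peak -0.04.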

How the data were processed

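BWA was the aligner and mm9 the genome build, per the submitters' processing notes. The authors deposited 1 peak list per antibody library, with a score for each peak as the measured value. Peak names hold the word "pics", per the columns of the lists. The caller's settings, its use of the input and later filters were not given in the sources used here. Other deposited columns are positions in bp. Starts were raised by 1 as for BED files, although no header states that starts count from 0, and positions are given 1-based.

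Sites were taken by score and overlap (at least 1 bp). Distances run between peak centres. The members and the classes were chosen with earlier results of these data known. Sites named by position are the first 3 by width (widest, narrowest), by nearness to Meis, strong Prep or each other, by isolation, and by group size, with ties going to the higher score. Any other named place was chosen after its values were seen. No mm9 sequence or gene annotation was used here, so no site is assigned to a gene, exon or sequence. The tools were numpy 2.4.6, scipy 1.17.1, pandas 2.3.3 and matplotlib 3.10.9 under Python 3.11.15. Overlap, distance and interval functions were tested on simulated lists. Alternatives covered the score limit, the overlap rule, the Meis list, merged neighbours, autosomes and edge distances.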

Additional observations from a re-analysis of the deposited data

How the results depend on the processing

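The 7 values checked were the number of weak Prep-only sites, their median width, their share on the X chromosome, the median distance to the nearest other site, and the shares within 10 kb of a Meis, strong Prep or any other Prep peak. Of 58 alternative values, 49 stayed within the 95% interval of the reported value (for the number of sites, within 1.5 times). Apart from changes of the score limit, the settings left 807 to 886 sites, most of them the same. This tally is therefore no measure of robustness. The score limit moved most. With sites below their own median score, the number was 422, the median width 304 bp and the median distance to the nearest other site 1203 kb. With all Prep-only peaks below the median score of the list, they were 1345, 286 bp and 278 kb. These changes in distance go with fewer and with more sites. With Meis peaks widened by 500 bp, 4.81% of the sites had a Meis peak within 10 kb, and with the highest-scoring 50% of Meis peaks 2.93%, where the first setting removes sites close to Meis peaks and the second removes Meis peaks. With sites at gaps of up to 1 kb counted once, 11.7% had another Prep peak within 10 kb, which follows from the merging. The 50% overlap rule, autosomes, edge distances and, chosen after the data were seen, sites on whole steps gave values within the intervals. No paired analysis was possible because each group has 1 library. For the same reason no replicate could be left out, and read depth is unknown, so no peak could be set against its counting error.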
